A study of Arabidopsis thaliana with 8 samples.

Results

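The genes described are 10 components of the Pol IV and Pol V silencing machinery of Arabidopsis thaliana, chosen by locus identifier and found as 10 of the 34133 entries of each expression table. They are NRPD1 (AT1G63020), NRPE1 (AT2G40030), NRPD2 (AT3G23780), NRPD4 (AT4G15950), NRPE5 (AT3G57080), DRD1 (AT2G16390), DMS3 (AT3G49250), RDM1 (AT3G22680), KTF1 (AT5G04290) and SHH1 (AT1G15215). Whole seedlings of the Col-0 background, 10 days old and grown on plates of Murashige and Skoog medium in long days, were used for mRNA sequencing. Wild type (WT) had 2 libraries and mom1 had 2, and pial1/2, pial2, mom1pial2 and nrpe1 had 1 library each. mom1 is a mutant of MOM1, which encodes a nuclear silencing protein, the pial genotypes carry mutations in the SUMO ligase-like genes PIAL1 and PIAL2 or in PIAL2 alone, mom1pial2 combines mom1 with pial2, and nrpe1 is a mutant of one of the 10 genes. The sample labels give no allele names, and the deposited tables tag the 2 mom1 libraries differently without explaining the tags. The labels do not say whether a library is a pool of plants or whether replicates were grown separately. The p-values of fits over all libraries therefore measure only the spread between these libraries. Each p and q of the authors' deposited tables compares 1 WT library with 1 mutant library and measures no spread between replicates.

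In plants, RNA-directed DNA methylation uses a pair of polymerases that evolved from RNA polymerase II. Pol IV makes the precursors of small interfering RNAs, and Pol V makes scaffold transcripts at the target, where ARGONAUTE proteins loaded with those RNAs bind and bring in the DNA methyltransferase. SHH1 brings Pol IV to chromatin with methylated histone tails, and the DDR complex of DRD1, DMS3 and RDM1 is needed for Pol V to act on chromatin. KTF1, related to the elongation factor SPT5, binds ARGONAUTE proteins and Pol V transcripts. MOM1 and the PIAL proteins act at many of the same silenced loci, and the comparisons ask whether transcripts of the methylation machinery itself differ in their mutants or in nrpe1.

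The active site of every multisubunit RNA polymerase holds a trio of aspartates in its largest subunit. It is shown here for the largest subunits of Pol IV and Pol V beside that of RNA polymerase II, because NRPD1 had the highest ratio to WT of the 10 genes in nrpe1 and NRPE1 is the mutated gene. Each stretch is 45 bases of coding strand in the TAIR10.1 assembly, with the codons of the 3 aspartates in capitals.
NRPD1, chr1:23359168-23359212, minus strand: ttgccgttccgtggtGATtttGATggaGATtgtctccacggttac
NRPE1, chr2:16717444-16717488, plus strand: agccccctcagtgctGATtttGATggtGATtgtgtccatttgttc
NRPB1, chr4:16965697-16965741, minus strand: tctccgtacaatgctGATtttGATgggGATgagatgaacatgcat
The codons of the aspartates were the same in the 3 genes.

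NRPE1 and KTF1 also have in common a run of glycine and tryptophan side by side, which is known to bind ARGONAUTE proteins. Such pairs were searched for in frame on the coding strand as the codons GGNTGG or TGGGGN, where a glycine that adjoins 2 tryptophans, or a tryptophan that adjoins 2 glycines, counts in both pairs. NRPE1 held 20 pairs in 1976 codons, from codon 1215 to codon 1692. KTF1 held 47 pairs in 1493 codons, from codon 353 to codon 1492. Of 27444 annotated coding sequences, 5 (0.0182%) held as many pairs as NRPE1, and KTF1 held the most. NRPD1 and NRPD2 held 3 pairs each, DRD1 held 1, and NRPE5, DMS3, RDM1 and SHH1 held 0, while the annotated coding sequence of NRPD4 was not a whole number of codons and was not searched. For each gene the first of the stretches of 30 codons that tie for the most pairs is shown with the paired codons in capitals, since the transcripts of both genes were lower than WT in all 6 tables.
NRPE1, codons 1411 to 1440, chr2:16721484-16721573, plus strand: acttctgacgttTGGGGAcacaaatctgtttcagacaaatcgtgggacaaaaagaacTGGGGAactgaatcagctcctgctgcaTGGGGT
KTF1, codons 761 to 790, chr5:1200373-1200462, plus strand: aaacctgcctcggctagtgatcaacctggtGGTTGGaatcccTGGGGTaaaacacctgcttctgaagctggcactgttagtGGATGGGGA

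**Figure D1:**
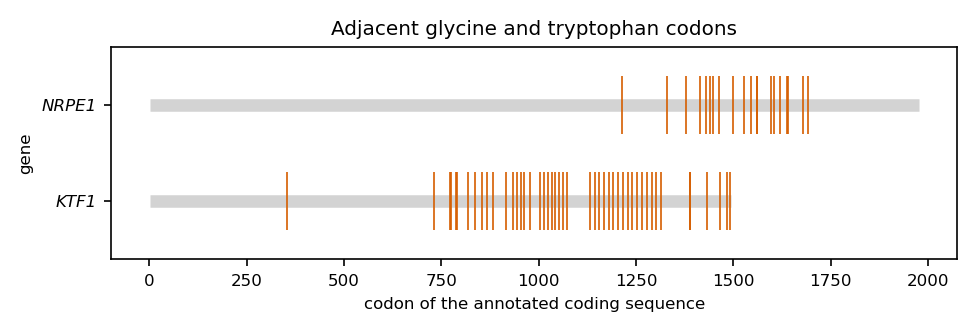
Positions of adjacent glycine and tryptophan codons (vertical lines) along the coding sequences of NRPE1 and KTF1 (grey bars), with the codon number on the horizontal axis. The 20 pairs of NRPE1 lie between codons 1215 and 1692, and the 47 pairs of KTF1 reach from codon 353 to codon 1492.

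The deposited tables give FPKM, fragments scaled to transcript length and to library size, with each table normalized separately. They hold no counts, and the fragment depth is therefore unknown. WT replicate 1 was tabulated with mom1 replicate 1, pial1/2 and nrpe1, called the first set here, and WT replicate 2 with mom1 replicate 2, pial2 and mom1pial2, the second set. By the steps of the lowest FPKM values, mom1 replicate 1 was about 1.5015 times as deep as its WT library, and the other mutant libraries were 0.887 to 1 times as deep as theirs. MOM1 was 0.264 and 0.235 times WT in the mom1 libraries and 0.258 times WT in mom1pial2, and PIAL2 was 0.355 times WT in pial2 and 0.384 times in mom1pial2. PIAL2 was 0.740 times WT in the library labelled pial1/2, with q = 0.290 in the authors' deposited table, so that label is not checked by total FPKM. The level of PIAL1, the other gene of that label, was not examined. Leaf markers such as RBCS1A summed to between 21508 and 25701 FPKM, root markers to between 30.8 and 57.9 and floral markers to between 2.28 and 5.27 in the 8 libraries. The 4 seed markers summed to 13.8 FPKM in WT replicate 2 and 5.40 in mom1pial2, and to 0.158 to 0.496 in the other libraries, where 1 to 3 of the 4 were listed at 0.

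Transcripts of all 10 genes were present in every library, and the highest level was 14.0 to 23.5 times the lowest within a library. In WT replicate 1 the order by FPKM, which is per length, was NRPE5, RDM1, KTF1, NRPD2, NRPD4, SHH1, DMS3, DRD1, NRPE1 and NRPD1. NRPE5 stood at 29.4 FPKM there and NRPD1, the largest subunit of Pol IV, at 1.92. In WT replicate 2 NRPE5 was again the highest, at 18.0 FPKM, and NRPD1 the lowest, at 1.28. DRD1, NRPE1 and NRPD1 kept the last 3 places in both WT libraries. KTF1 and RDM1 changed places between them, and NRPD4 moved from above to below SHH1 and DMS3. The WT libraries belong to different sets, so a difference between sets and the spread of WT libraries cannot be told apart in these orders. In whole seedlings, fewer cells that express a gene and less RNA per cell cannot be told apart.

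**Figure D2:**
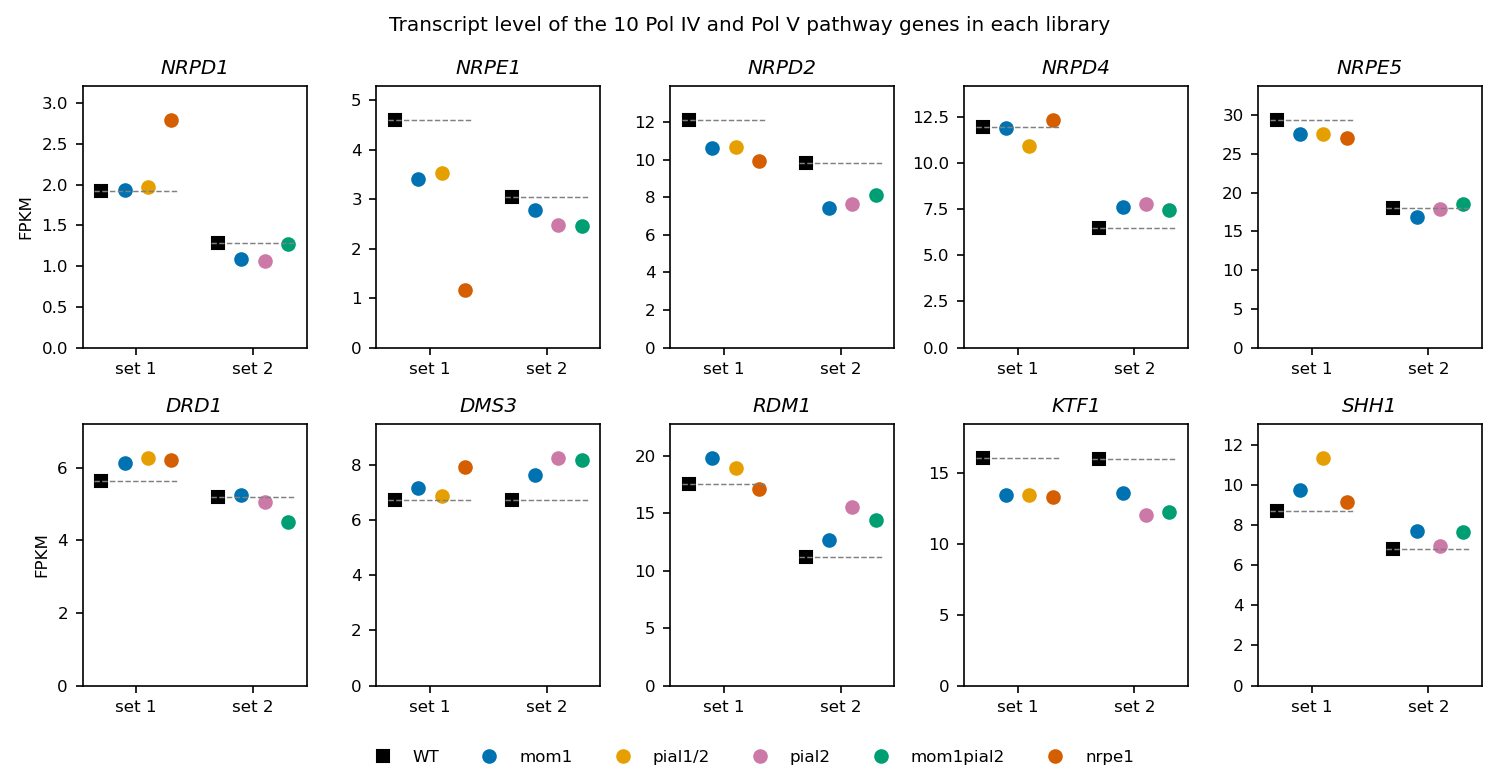
FPKM of each of the 10 genes in each of the 8 libraries, with set 1 on the left and set 2 on the right of each panel; squares are WT, circles are mutants coloured by genotype, and the dashed line is the WT level of the set. NRPE1 in nrpe1 stands at 1.16 FPKM against 4.60 in WT replicate 1, KTF1 lies below WT in every mutant library, and 7 genes lie lower in the second set.

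NRPE1, the largest subunit of Pol V, is the gene named by the nrpe1 label and spans positions 16714494 to 16723583 of chromosome 2 (TAIR10, plus strand). The WT libraries of the first and second set had 4.60 and 3.04 FPKM of it. It was 3.42 and 2.78 in the mom1 libraries, 3.54 in the library labelled pial1/2, 2.47 in pial2 and 2.45 in mom1pial2. It was 1.16 in nrpe1. The nrpe1 library lay below the 7 others, and each of the other mutant libraries lay below the WT library of its table. The share of all genes below WT in every table was not computed. NRPE1 in nrpe1 was 0.251 times WT and was called by the authors' deposited table, with q listed as 0, against 0.67% of tested genes called lower there. Of 19487 genes with at least 1 FPKM in WT replicate 1, 71 were as low against WT in nrpe1 as NRPE1 or lower, NRPE1 included. On the log2(FPKM + 1) scale, which understates changes of low genes, the limma estimate over all 8 libraries was -1.31 (SE 0.142, 95% interval -1.76 to -0.87, 1 nrpe1 library). Its adjusted p was 0.497 by limma (0.345 to 0.989 over the alternatives; unadjusted 0.00244), in a comparison where limma called 0% of genes, and 3.78% at an unadjusted p under 0.05. A mutant with 1 library has no replicate check of its own and was assumed to vary like the replicated libraries.

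Against WT, NRPE1 in the remaining mutants differed by -0.34 to -0.09 on the log2(FPKM + 1) scale. The lowest q among these in the authors' deposited tables was 0.255, in the library labelled pial1/2. The 3 genes whose 6 within-table log2 ratios were nearest to those of NRPE1 were AT1G54120, AT5G11330 and AT2G13550, with root mean square differences of 0.17, 0.21 and 0.21 among 18276 genes with at least 1 FPKM in every library. In nrpe1 their log2 ratios were -1.10, -1.40 and -1.28. Low values there follow from the choice of genes near NRPE1, which was itself at -1.38 in nrpe1. The 6 ratios rest on 2 WT libraries, so this likeness is a description.

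NRPD1 was the gene of the 10 with the highest ratio to WT in nrpe1. It lies at 23354685 to 23362564 on the minus strand of chromosome 1. NRPD1 stood at 1.92 FPKM in WT replicate 1, 1.94 in mom1 replicate 1, 2.80 in nrpe1 and 1.98 in the library labelled pial1/2. In the second set it was 1.28 in WT, 1.08 in mom1, 1.07 in pial2 and 1.27 in mom1pial2. Its level in nrpe1 was thus above all 7 other libraries, which had no other value over 1.98. The ratio was 1.45, with p = 0.00300 and q = 0.121 in the authors' deposited table, and was not called. By limma the difference was 0.34 (SE 0.114, 95% interval -0.01 to 0.70). Its adjusted p was 1 by limma (unadjusted 0.0550). Without the set as a block the estimate was 0.56 (SE 0.348). NRPD1 differed from WT by -0.14 to 0.03 (log2) in the MOM1 and PIAL mutants.

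NRPD2, the second-largest subunit that Pol IV and Pol V share, lies at 8567725 to 8574209 on the minus strand of chromosome 3. It was 12.1 FPKM in WT replicate 1 and 10.6, 10.7 and 9.93 in mom1, the library labelled pial1/2 and nrpe1 of that set. In the second set it was 9.83 in WT and 7.42, 7.63 and 8.11 in mom1, pial2 and mom1pial2. Every mutant library lay below its own WT library, with log2 differences of -0.35 to -0.16. The mutants of a set share a WT library, and the share of all genes with this pattern was not computed. WT replicate 2 lay just below the lowest library of the first set, nrpe1. The lowest q in the authors' deposited tables was 0.401, in pial2. Of the 50-base windows in the gene's exons, 8.39% also occurred elsewhere in the genome, so part of its reads may be shared with other loci.

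NRPD4, a smaller subunit of both polymerases, lies at 9040683 to 9042129 on chromosome 4. NRPE5, the fifth subunit particular to Pol V, lies at 21125857 to 21127636 on chromosome 3. NRPD4 was 11.95 FPKM in WT replicate 1 and 10.9 to 12.3 in the mutants of that set, and 6.47 in WT replicate 2 and 7.47 to 7.80 in the mutants of the second. NRPE5 was 29.4 in WT replicate 1 with mutants at 27.1 to 27.6, and 18.0 in WT replicate 2 with mutants at 16.9 to 18.6. Against WT the differences ran from -0.12 to 0.23 (log2) for NRPD4 and from -0.11 to 0.03 for NRPE5, and the lowest q of either in the authors' deposited tables was 0.843.

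Among the DDR genes, DRD1 encodes a chromatin remodeller related to SNF2 (chromosome 2, 7097280 to 7101261). DRD1 was 5.63 FPKM in WT replicate 1 and 6.12 to 6.26 in the mutants of that set, and 5.18 in WT replicate 2 and 4.49 to 5.24 in the mutants of the second. Its ratios to WT were therefore above 1 in 4 tables and below 1 in 2, between 0.861 and 1.12.

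DMS3 encodes a protein related to the hinge of cohesin-like ATPases (chromosome 3, 18258261 to 18260998, minus strand). The WT libraries of the first and second set had 6.73 and 6.72 FPKM of DMS3. It was 7.15 and 7.63 in the mom1 libraries, 6.86 in the library labelled pial1/2, 8.23 in pial2, 8.17 in mom1pial2 and 7.92 in nrpe1. All 6 mutant libraries lay above both WT libraries, as they did for 1.38% of genes fitted. The differences were 0.03 to 0.25 (log2), and the lowest q in the authors' deposited tables was 0.695.

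RDM1, the small DDR subunit that binds methylated DNA (chromosome 3, 8019708 to 8020508), was 17.6 FPKM in WT replicate 1, 19.8 in mom1 replicate 1, 17.1 in nrpe1 and 19.0 in the library labelled pial1/2. In the second set it was 11.2 in WT, 12.7 in mom1, 15.5 in pial2 and 14.4 in mom1pial2. It stood above WT in the 5 MOM1 and PIAL mutant libraries and just below WT in nrpe1. In pial2 it was 1.38 times WT, with p = 0.0430 and q = 0.416 in the authors' deposited table. The limma estimate for pial2 was 0.43 (SE 0.104, 95% interval 0.10 to 0.76). Its adjusted p was 0.713 by limma (unadjusted 0.0246). Without the set as a block the estimate was 0.14 (SE 0.443).

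KTF1, the SPT5-like factor (chromosome 5, 1196069 to 1202653), had close levels in the WT libraries, at 16.0 FPKM in both. It was 13.4 and 13.6 in the mom1 libraries, 13.4 in the library labelled pial1/2, 12.03 in pial2, 12.3 in mom1pial2 and 13.3 in nrpe1. All 6 mutant libraries lay below both WT libraries, which held for 1.2% of genes fitted. The mom1 difference was -0.22 ± 0.03 (SD, n = 2 tables) on the log2(FPKM + 1) scale, with an unadjusted p of 0.0661 and an adjusted p of 0.806 by limma. In pial2 KTF1 was 0.750 times WT, with p = 0.00922 and q = 0.186 in the authors' deposited table. The limma estimates were -0.40 in pial2, -0.37 in mom1pial2, -0.24 in nrpe1 and -0.22 in the library labelled pial1/2, with adjusted p-values of 0.713, 0.746, 1 and 1. KTF1 passed the adjusted threshold in no comparison.

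SHH1, the histone reader that recruits Pol IV, lies at 5238065 to 5241538 on chromosome 1, in an interval that the tables also give to AT1G15220, so reads may have been split between the entries. SHH1 stood at 8.69 FPKM in WT replicate 1, 9.74 in mom1, 9.14 in nrpe1 and 11.3 in the library labelled pial1/2. In the second set it was 6.80 in WT, 7.70 in mom1, 6.97 in pial2 and 7.67 in mom1pial2. Each mutant lay above its own WT library, and the share of all genes with this pattern was not computed. The largest ratio was 1.31, in the library labelled pial1/2, with p = 0.0411 and q = 0.720 in the authors' deposited table.

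**Figure D3:**
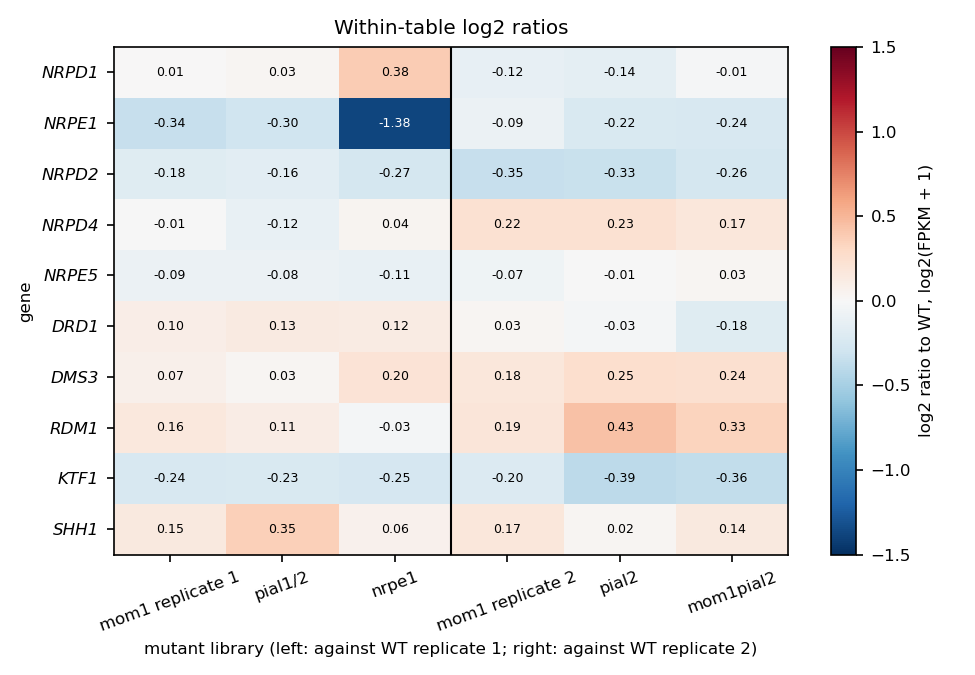
Within-table log2 ratios of mutant to WT on the log2(FPKM + 1) scale for the 10 genes (rows) and 6 mutant libraries (columns), with blue for lower and red for higher than WT. NRPE1 in nrpe1, at -1.38, is the sole value past 1.5-fold.

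Over all 60 ratios of the 10 genes, 1 lay past 1.5-fold and 48 lay within 1.2-fold of WT on the log2(FPKM + 1) scale. That scale understates changes of low genes, and the share of all genes within 1.2-fold was not computed. The ratio past 1.5-fold was NRPE1 in nrpe1, where 3.19% of genes fitted passed that fold. In the tables of mom1 replicate 1, mom1 replicate 2, the library labelled pial1/2, pial2 and mom1pial2, where 0 of the 10 did, 3.89%, 5.61%, 2.83%, 4.69% and 5.02% passed it. The authors' deposited tables called 1 of the 60, the same ratio, and gave an unadjusted p under 0.05 to 12, beside 7.76% of all tests in the 6 tables. The 60 ratios rest on 2 WT libraries and are not independent. Of the 10 genes, 3 lay below WT in all 6 tables and 2 lay above WT in all 6. The share of all genes that lay on the same side in all 6 was not computed, so this is a description. In nrpe1 the authors' deposited table called 1.87% of tested genes. The tables called 0 of the 10 genes in mom1 replicate 1, mom1 replicate 2, the library labelled pial1/2, pial2 and mom1pial2, beside 2.12%, 2.34%, 1.19%, 2.44% and 1.98% of all genes tested.

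By limma, 0 of the 10 genes passed the adjusted threshold in each of the 5 genotypes. The share of all genes that passed was 0% in mom1, 0.0432% in the library labelled pial1/2, 0.0048% in pial2, and 0% in mom1pial2 and nrpe1. At an unadjusted p under 0.05 the counts of the 10 genes were 0 in mom1, 1 in the library labelled pial1/2, 2 in pial2, 1 in mom1pial2 and 1 in nrpe1. The shares of all genes at that p were 5.79%, 3.82%, 6.53%, 6.14% and 3.78%. The median log2 difference of the 10 genes lay between -0.03 and 0.02 in these contrasts, and that of all genes was 0.00 in each.

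In mom1, the genotype with 2 libraries, the mean differences ran from -0.26 ± 0.12 for NRPD2 to 0.17 ± 0.02 for RDM1 (SD, n = 2 tables, log2 scale). NRPE1 was -0.21 ± 0.18 and SHH1 0.16 ± 0.02. DMS3 was 0.12 ± 0.07 and NRPD4 0.11 ± 0.16. The lowest unadjusted p by limma was 0.0640, for NRPD2, and the lowest adjusted p was 0.806. The mom1 libraries lay on opposite sides of WT for NRPD1 and NRPD4 and on the same side for the rest of the 10 genes. The share of all genes with both on the same side was not computed, so this is a description.

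The 5 libraries of the MOM1 and PIAL mutants were also compared with the 2 WT libraries as 1 group, a contrast added after the values had been seen. KTF1 differed by -0.28 (SE 0.0719, 95% interval -0.45 to -0.11), NRPD2 by -0.25 (SE 0.0631, interval -0.40 to -0.09) and NRPE1 by -0.25 (SE 0.0713, interval -0.42 to -0.07). RDM1 differed by 0.23 (SE 0.0875, interval 0.02 to 0.44). These 4 of the 10 genes had an unadjusted limma p under 0.05 (0.00755, 0.00750, 0.0125 and 0.0366), as did 6.66% of all genes, while 0 of the 10 passed the adjusted threshold, which 0.072% of all genes did. The lowest adjusted p was 0.727. SHH1 and DMS3 had intervals of -0.03 to 0.38 and -0.02 to 0.30. NRPD1, NRPD4, NRPE5 and DRD1 had estimates of -0.05 to 0.08. Leaving out 1 library at a time moved KTF1 between -0.32 and -0.24, NRPD2 between -0.31 and -0.17, NRPE1 between -0.32 and -0.18 and RDM1 between 0.14 and 0.32. Some markers of other tissues also differed between these libraries. The 4 floral markers summed to 2.28 to 3.87 FPKM in these mutant libraries and to 4.17 and 4.52 in WT. Most of this sum was SEP3, at 1.46 to 3.09 FPKM in these mutants and 3.25 and 3.01 in WT. AG went the other way in mom1 replicate 1, at 0.139 FPKM against 0.104 in WT replicate 1. The 3 root markers had a median difference of -0.35 by limma, and 0 of them had an unadjusted limma p under 0.05. The number below WT was 3 of 3 in mom1 replicate 2, pial2 and the library labelled pial1/2, and 2 in mom1 replicate 1 and mom1pial2. The number called lower in the authors' deposited tables was 2 of 3 in mom1 replicate 2, 2 in pial2, 1 in mom1pial2 and 0 in the first set. The 4 seed markers summed to 13.8 FPKM in WT replicate 2 and 0.232 to 5.40 in the mutants of its set, but to 0.158 in WT replicate 1 and 0.286 and 0.321 in mom1 and the library labelled pial1/2. The part of these markers in the contrast was not tested.

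**Figure D4:**
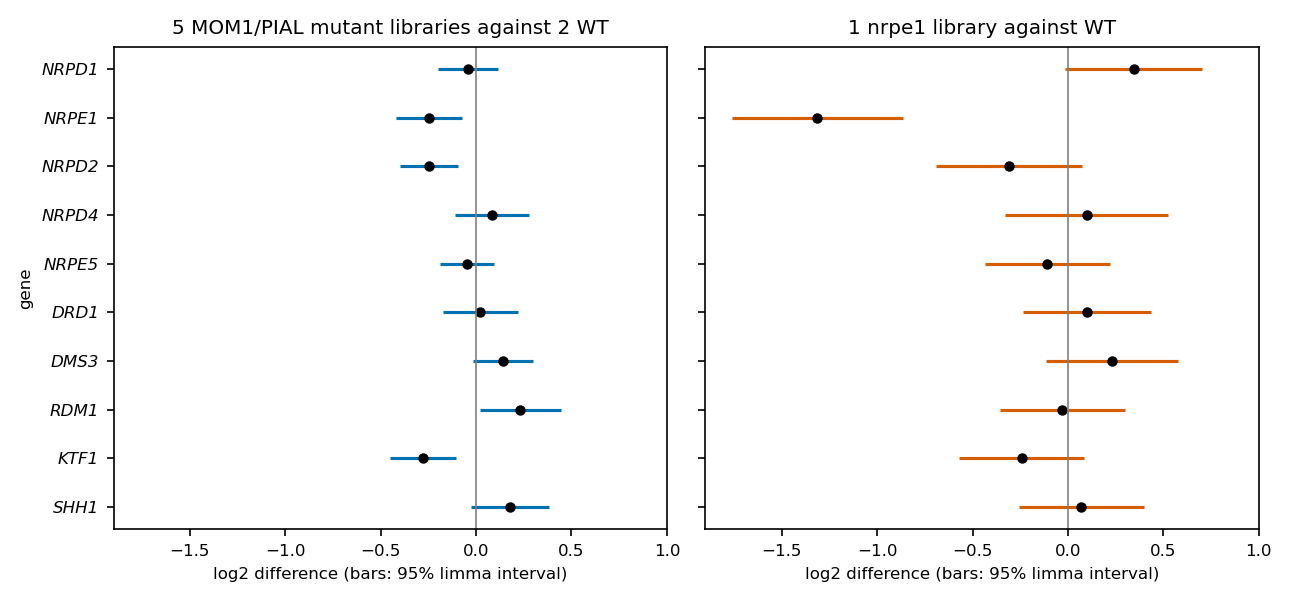
Estimated log2 differences from WT on the log2(FPKM + 1) scale (points) with 95% limma intervals (bars) for the 5 MOM1 and PIAL mutant libraries together (left) and the nrpe1 library (right). The intervals of KTF1, NRPD2, NRPE1 and RDM1 exclude 0 on the left, and that of NRPE1, from -1.76 to -0.87, excludes 0 on the right.

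Most of the 10 genes had lower levels in the second set. All 4 libraries of the second set lay below all 4 of the first for 7 of the 10 genes, NRPD1, NRPD2, NRPD4, NRPE5, DRD1, RDM1 and SHH1, as they did for 34.9% of genes fitted. For 0 of the 10 they lay above, as they did for 30% of genes fitted. NRPD4 in WT replicate 2 was 0.541 times its level in WT replicate 1, NRPE5 was 0.612 times, RDM1 0.635 times, NRPE1 0.662 times and NRPD1 0.666 times. In the mom1 libraries the same ratios were 0.641, 0.614, 0.640, 0.812 and 0.560. NRPE5 and RDM1 were at least 1.5-fold lower in both pairs on the log2(FPKM + 1) scale, as were 12.2% of genes fitted. KTF1 and DMS3 were 0.996 and 0.999 times WT replicate 1, so these genes stood level between the sets. The median log2 difference of the 10 genes was -0.34 for the WT pair and -0.37 for the mom1 pair, beside -0.05 and -0.04 over all genes.

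These levels come from tables normalized separately, so no test was made between sets. The clock gene CCA1 was 9.33 to 15.2 FPKM in the first set and 127 to 155 in the second, and PRR5 was 19.6 to 34.8 and 0.308 to 0.468. The summed FPKM of the 8 markers of dividing cells ran from 152.6 to 165.9 in the first set and from 122.7 to 153.7 in the second. Their median FPKM ran from 14.3 to 17.3 in the first set and from 10.7 to 13.0 in the second, without overlap. KNOLLE, the largest part of the sum, went the other way, at 49.1 to 54.6 FPKM in the first set and 51.8 to 67.8 in the second. The parts of the clock and of dividing cells in the set difference were not tested. The set and any difference in growth or harvest cannot be told apart.

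**Figure D5:**
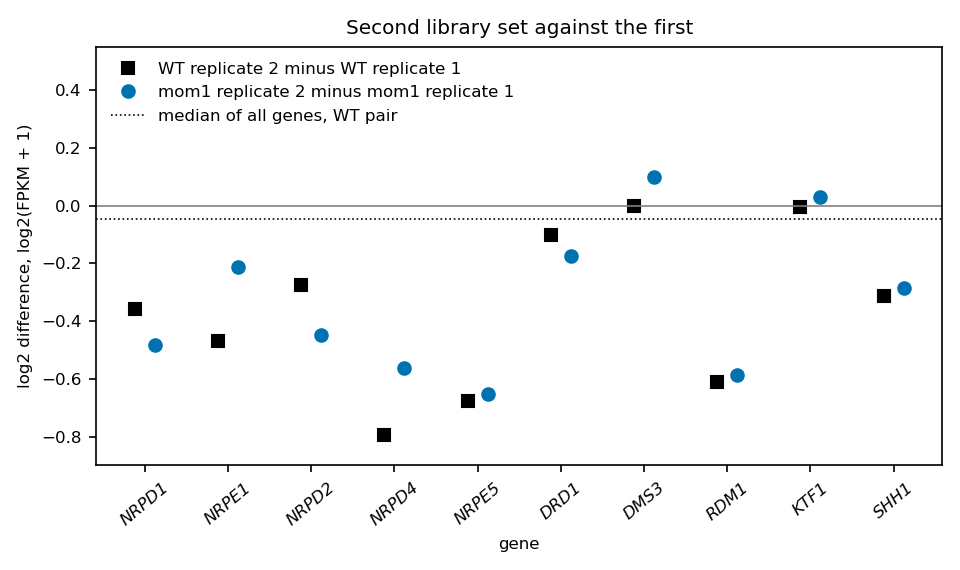
Difference between the second and the first library set on the log2(FPKM + 1) scale for each gene, as the WT pair (squares) and the mom1 pair (circles), with the median of all genes for the WT pair as a dotted line. NRPD4, NRPE5 and RDM1 lie lowest, while DMS3 and KTF1 lie near 0.

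Of 23 other genes of RNA-directed DNA methylation, 20 were fitted, and 0 passed the adjusted limma threshold in any genotype. At an unadjusted limma p under 0.05 there were 1 in mom1, 0 in the library labelled pial1/2, 2 in pial2, 0 in mom1pial2 and 1 in nrpe1. FDM2, a double-stranded RNA binding partner of IDN2, was called lower in 3 of the authors' deposited tables. It was 12.2 FPKM in WT and 6.89 in mom1 replicate 2 (q = 0.00688), 12.4 and 7.00 in the pial2 table (q = 0.000638) and 12.4 and 7.39 in the mom1pial2 table (q = 0.0146). In the first set it was 5.57 FPKM in WT replicate 1, and 4.36 in mom1, 4.46 in nrpe1 and 4.35 in the library labelled pial1/2, with no call. FDM2 thus lay below its own WT library in 6 tables, and for the MOM1 and PIAL mutants together limma gave -0.52 (SE 0.101) with an adjusted p of 0.484. The 3 calls share WT replicate 2, and the share of all genes below WT in 6 tables was not computed. AGO9, an ARGONAUTE known from reproductive tissue, was called lower in the authors' deposited tables of the first set, at 1.22 FPKM in WT and 0.109 to 0.171 in the mutants, while in the second set, where the authors did not test it, it was 0.325 in WT and 0.0660 to 0.0988 in the mutants. Every mutant library lay below both WT libraries. DCL4, which makes other small interfering RNAs, was called higher in nrpe1 (8.90 against 6.70 FPKM, q = 0.0383 in the authors' deposited table). CLSY2, a remodeller that works with Pol IV, was called lower in pial2 (0.636 against 1.21 FPKM, q = 0.0498 in the authors' deposited table). Its log2 differences from WT were -0.43 to -0.28 in the second set, but 0.12 in each mutant of the first. For the MOM1 and PIAL mutants together limma gave -0.13 (SE 0.113) with an adjusted p of 0.805.

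Among genes of that list with no call, RDR2, the RNA-dependent RNA polymerase that works with Pol IV, stood below WT in 6 tables. The share of all genes that did so was not computed. RDR2 had log2 differences of -0.46 to -0.17. Its lowest q in the authors' deposited tables was 0.0875, in pial2. SUVH9, MORC6 and SUVR2 lay between -0.33 and 0.46 of WT. Of the 16 other subunits of RNA polymerases I to V, all 16 were fitted and 0 were called by the authors' deposited tables or by limma. At an unadjusted limma p under 0.05 there were 1 in mom1, 0 in the library labelled pial1/2, 2 in pial2, 2 in mom1pial2 and 1 in nrpe1. NRPB9A, a small subunit of RNA polymerase II, was 3.56 FPKM in WT and 1.39 in nrpe1 (q = 0.262 in the authors' deposited table). NRPB1, the largest subunit of RNA polymerase II, differed from WT by -0.42 to -0.06 on the log2 scale in the 6 tables. NRPE7, the seventh subunit of Pol V, was 5.72 FPKM in WT and 9.11 in pial2 (q = 0.185 in the authors' deposited table), and NRPB12, a subunit common to all the polymerases, lay between -0.10 and 0.21 of WT.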

How the data were processed

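Per the labels, mRNA of whole seedlings was enriched with oligo(dT) beads, and the 8 libraries were grouped by genotype. Alignment to TAIR10 used TopHat2 2.0.12 and Bowtie, and quantification and testing used Cufflinks 2.2.1 and Cuffdiff, per the submitters' processing notes. Per the file headers, the authors deposited FPKM of 2 libraries per table with a p-value and q-value from their own test. A gene was called when q lay below 0.05. The FPKM of a WT library differed between its 3 tables by a constant factor (1.01 for WT replicate 1, 1.02 for WT replicate 2) and were averaged, and each mutant level was set to the WT level of its set plus its within-table log2 ratio. limma 3.58.1 in R 4.3.3 was fitted to log2(FPKM + 1) of 20835 genes that reached 1 FPKM in 1 or more of 8 libraries. Of the entries, 58 with a failed or excess-data status were left out. The fit had genotype and set as terms, empirical Bayes, a two-sided test and Benjamini-Hochberg adjustment over all genes at 0.05, with 1 residual degree of freedom and a prior of 2.07. The set is a block that comes from the pairing of libraries in the tables. Across genes, same-numbered WT and mom1 libraries deviated from their group means together, with a correlation of 0.83. The joint MOM1 and PIAL contrast had 4 residual degrees of freedom and left out nrpe1. The fit was checked on simulated data. Sequences, coding sequences and exons came from the TAIR10.1 genome and annotation. The members and lists were chosen with earlier results of these data known. Of the other lists, the genes called by the authors and up to 4 others per list with the largest mean log2 ratio were named. Alternatives were another pseudocount, no filter, no block, a trend, centred ratios and single libraries left out. Python 3.11.15, numpy 2.4.6 and pandas 2.3.3 were used for the rest.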

Additional observations from a re-analysis of the deposited data

How the results depend on the processing

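None of the 10 genes passed the adjusted limma threshold in any of 490 tested values over 14 settings, where the lowest adjusted p was 0.345. That lowest value belonged to NRPE1 in nrpe1, the mutated gene, which stood at 0.251 times WT. A fit that does not call this gene has little power, so the lack of calls does not show that the 10 genes were unchanged. The count of all genes past the threshold moved with the settings. For mom1 it was 0, and 8 with a trend in the prior spread, 14 with centred ratios and 18 with a filter of 1 FPKM in a WT or mom1 library, chosen after seeing the data. For the library labelled pial1/2 it was 9, and 30 with a pseudocount of 0.1, 16 with centred ratios, and 0 with no filter, with no replicate block, with the trend and with the added filter. For pial2 it was 1, and 2 with the added filter and 0 with the pseudocount of 0.1, with no filter and with no replicate block. For mom1pial2 it was 0, and 14 with centred ratios and 9 with the added filter, and for nrpe1 it was 0, and 7 with centred ratios. For the MOM1 and PIAL mutants together it was 15, and 8 with no replicate block. Leaving out 1 library at a time gave 2 to 49 there: 2 without mom1pial2, 6 without the library labelled pial1/2, 9 without mom1 replicate 2, 39 without pial2, 41 without WT replicate 1 and 49 without WT replicate 2. Without the replicate block, 34 of 60 estimates of the 10 genes moved by over 1.5 times or changed sign, 12 of them changing sign, though none was called with or without it. RDM1 went from 0.43 to 0.14 in pial2 and from 0.33 to 0.04 in mom1pial2, NRPD1 in nrpe1 from 0.34 to 0.56, and KTF1 in the MOM1 and PIAL mutants together from -0.28 to -0.29. NRPE1 in nrpe1 was -1.31, and -1.38 to -1.12 with a WT or mom1 library left out, values with no test because no residual degree of freedom remained. The causes of these moves were not tested. Depth in fragments is unknown, and 1 library for each mutant but mom1, which has 2, limits the precision.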
